A study of Mus musculus with 5 samples.

Results

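T cells and natural killer (NK) cells made up a small part of the cells recovered from the ovariectomized mouse mammary gland. Of the 14344 cell barcodes in 5 single-cell libraries, 73 (0.509%, 95% Clopper-Pearson interval 0.399 to 0.639%) were taken as T and NK barcodes. A barcode was taken when it held at least 2 unique molecular identifiers (UMIs, each standing for 1 captured transcript) summed over Cd3d, Cd3e, Cd3g, Nkg7 and Gzma. It also had to hold fewer than 50 UMIs per 10000 of the collagen and stromal genes Col1a1, Col1a2, Col3a1 and Dcn, fewer than 5 per 10000 of the epithelial genes Epcam and Krt18, and fewer than 10 UMIs in all of 7 myeloid genes (Lyz2, C1qa, C1qb, C1qc, Ctss, Alox5ap and Tyrobp). Mitochondrial transcripts could reach at most 10% of its UMIs. The members were thus chosen by the measured values of these 18 genes, which are described below without a test. Every other gene took no part in the choice, although it was read from the same barcodes.

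Female BALB/cj mice were ovariectomized in their ninth week and treated for 1 week, 20 weeks later, at an age of 30 weeks. All groups had lost their ovaries and differed in what they then received: OVX had the vehicle, OVX_E2 had 17β-estradiol at 1 µg per animal daily, and OVX_E2_P4 had estradiol with progesterone at 0.1 mg per animal. OVX_E2_PBDE and OVX_E2_P4_PBDE had the same hormones and food that carried per kg 7.1 mg of BDE-47, 0.4 mg of BDE-100 and 0.9 mg of BDE-153, polybrominated diphenyl ether flame retardants that persist in tissue, while the other groups had matched food with DMSO. The fourth gland was dissociated after its lymph node was removed, without sorting, and about 4000 cells were loaded per library. Each treatment had 1 library, so differences between treatments have no replicate check, and the intervals below cover counting error only. The study's methods give 8 mice per treatment group, and how many of them went into a library is not given in the sources used here. The library identifiers in the labels set both PBDE libraries apart from the other 3, and whether they mark a preparation batch is not stated; were it so, batch and PBDE exposure could not be told apart.

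T cells recognise antigen through a receptor that signals by way of the CD3 chains, and among them CD8 cells kill and CD4 cells mainly help. NK cells lack CD3 and the antigen receptor. They act through activating and inhibitory surface receptors, several of which signal by the small adaptors Tyrobp, Hcst and Fcer1g. Both kinds of cell carry cytotoxic granules with granzymes and secrete chemokines such as Ccl5 and Xcl1. In the mammary gland such lymphocytes lie within the epithelium and the stroma. Genes of the antigen receptor and immunoglobulin constant regions were not analysed here.

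The genes that chose the barcodes were unevenly spread over them. The CD3 chains lie side by side on chromosome 9 of GRCm38 (GENCODE M21 annotation), with Cd3g at chr9:44969572-44980431, Cd3d at chr9:44981786-44987339 and Cd3e at chr9:44998740-45009627. Cd3g gave 258 UMIs in 53 of the 73 barcodes, Cd3d 127 in 45 and Cd3e 114 in 41. The cytotoxic granule gene Nkg7 (chr7:43437073-43438249) gave 351 UMIs in 53 barcodes. The granzyme A gene Gzma (chr13:113093825-113100981) gave 829 UMIs but in only 21 barcodes. The sum of the 5 genes ran from 2 to 214 UMIs per barcode with a median of 13. Just inside the rule were 3 barcodes with 2 marker UMIs, and just outside were 33 with 1 marker UMI that passed the other limits. At that lower edge Cd52, a surface protein of lymphocytes, was seen in 2 of the 3 barcodes and in 5 of the 33.

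Genes outside the rule bore on the label. Ccl5 (chr11:83525778-83530518), a chemokine of cytotoxic lymphocytes, reached 6486 CPM (UMIs of the gene per 1000000 UMIs) in the summed T and NK barcodes against 57.6 CPM in all other barcodes and 314 CPM in myeloid barcodes. Hcst (chr7:30417712-30419854), the adaptor of the receptor encoded by Klrk1, stood at 430 CPM against 5.45 CPM in other barcodes. The pan-leukocyte genes Ptprc and Cd52 had UMIs in 63 and 70 of the 73 barcodes. Of the 4 myeloid list genes outside the rule, Csf1r and Adgre1 had no UMI in any member, Cd68 had 1 UMI, and Itgax had 5 UMIs in 4 members. The neutrophil genes S100a8, S100a9 and Retnlg were at 0. Fibroblast list genes had UMIs in all 73 members (823 UMIs, of which Gsn gave 444), epithelial list genes in 67, pericyte list genes in 17 and endothelial list genes in 13. The 7 barcodes with at least 10 UMIs of 1 of 5 genes of other cell types are described below. A count of 0 in the 418286 UMIs of the members allows up to 3 UMIs.

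The 73 barcodes fell into 3 classes once the CD3 chains and the adaptor transcripts were read together. These classes were drawn after the values had been seen and are given as a description. In 18 barcodes no Cd3d, Cd3e or Cd3g UMI was found, and 17 of those 18 held a UMI of at least 1 of 11 NK receptor genes. By the rule such barcodes had to hold at least 2 UMIs of Nkg7 or Gzma. In 20 barcodes CD3 transcripts came with Fcer1g or Tyrobp, and in 35 they came with neither adaptor. The last class held 16 of 29 barcodes in OVX, 5 of 9 in OVX_E2, 3 of 6 in OVX_E2_PBDE, 5 of 19 in OVX_E2_P4 and 6 of 10 in OVX_E2_P4_PBDE.

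**Figure D1:**
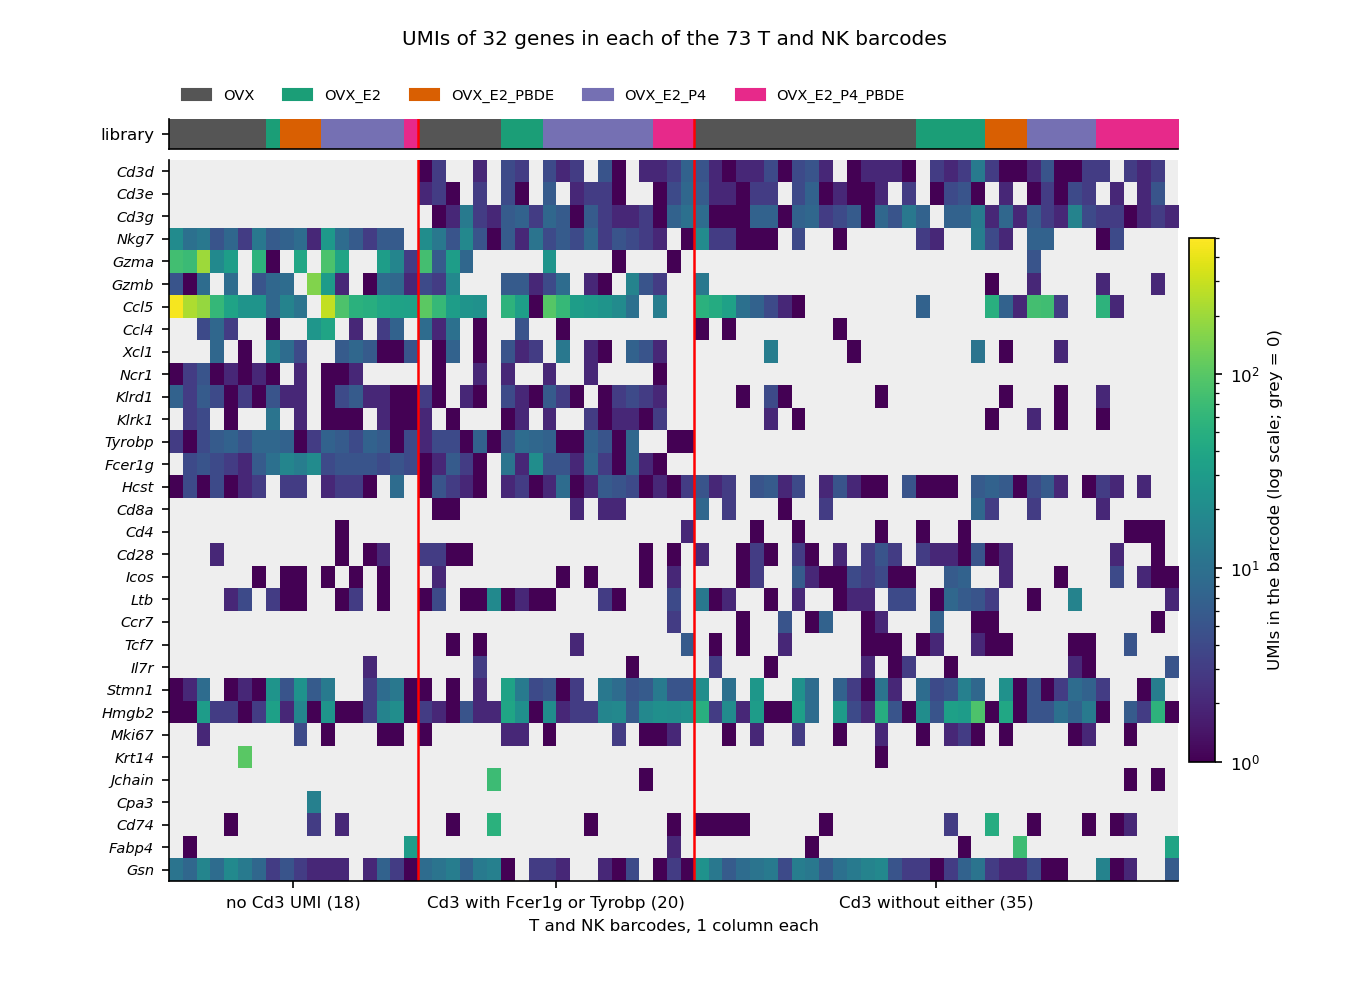
Heat map of the UMIs of 32 genes (rows, log colour scale, grey for 0) in each of the 73 T and NK barcodes (columns), set in 3 classes by their CD3, Fcer1g and Tyrobp UMIs, with the library of each barcode in the bar above. Ccl5, Gzma and the NK receptor genes fill the left class of 18 barcodes, and Cd28, Icos, Ccr7 and Tcf7 lie mostly in the right class of 35.

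Several cytotoxic transcripts differed in level between these classes. Ccl5 stood at 17626 CPM in the barcodes without CD3, at 5534 CPM in those with CD3 and an adaptor and at 2075 CPM in those with CD3 alone. Gzmb, which encodes granzyme B and was not in the rule, went from 2711 to 694 and 90.0 CPM in the same order. Gzma, at 7201, 1335 and 23.7 CPM, is a gene of the rule, by which the first class had to hold Nkg7 or Gzma. Other granule genes did not follow this order: Gzmk gave 1, 0 and 6 UMIs, Prf1 gave 6, 0 and 2, and Ctsw was at 214, 422 and 161 CPM. The Gzmb value of the first class rests largely on 1 barcode taken up below, which held 155 of its 253 UMIs. The median barcode held 5, 2.5 and 0 Gzmb UMIs in the 3 classes. Ncr1, the gene of the NK receptor NKp46, was at 236 and 87.8 CPM in the first 2 classes and had no UMI in the third. Klrd1, the gene of CD94, was at 547, 325 and 52.1 CPM. The chemokine gene Xcl1, whose product draws dendritic cells, was at 686, 422 and 137 CPM. The third class was high where these were low. The costimulatory receptor genes Cd28 and Icos stood at 204 and 242 CPM in it, against 64.3 CPM for each in the first class. Cd6, a surface receptor of T cells, was at 109 CPM there and at 0 in the first class. The lymph node homing receptor gene Ccr7 and the transcription factor gene Tcf7, both high in naive and memory T cells, were at 128 and 99.5 CPM there and had no UMI in the first class. Tcf7 UMIs were also found in the class with CD3 and an adaptor, 6 of them in 1 barcode.

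Coreceptor transcripts were sparse. Of the 55 barcodes with a CD3 UMI, 16 held Cd8a or Cd8b1, 9 held Cd4, none held both and 30 held neither. Foxp3, the regulatory T cell factor, gave 1 UMI in 1 barcode. Ifng gave 15 UMIs in 10 barcodes and Il17a gave 1. At this depth a barcode without a UMI of a gene cannot be said to lack its transcript. An NK receptor UMI was found in 27 of the 55 barcodes with CD3, so that NK receptor transcripts were not confined to barcodes without CD3. Klrc1 and Klrc2 are near-identical copies between which reads may have been split.

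Against myeloid barcodes, the other leukocytes of the gland, the genes higher in T and NK barcodes included the cell cycle gene Hmgb2, which was found in both classes. The granzyme gene Gzmb and others were higher too but nearly absent from myeloid barcodes, and reached the test through the T and NK sums. Myeloid barcodes were the 220 that passed the same stromal, epithelial and mitochondrial limits, held at least 10 UMIs of the 7 myeloid genes and fewer than 2 of the 5 marker genes. UMIs were summed per library and class, and the 5 pairs of sums were compared with edgeR's quasi-likelihood test with the library as a block. Of 1489 genes tested, 123 (8.26%) were higher in T and NK barcodes and 260 (17.5%) were lower, at an adjusted p under 0.05 and at least 2-fold. Some of these were genes of the rule, and outside it 120 of 1475 (8.14%) were higher and 253 (17.2%) lower. The members were chosen by transcripts of the same barcodes, so the test describes what they share and does not establish their identity.

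Of the 16 genes of the proximal antigen receptor signalling list, 6 had enough UMIs to be tested against myeloid barcodes, and they were higher. Most were near 0 in myeloid barcodes (Lck at 2 UMIs in 220 barcodes, Lat at 5 and Ptprcap at 8) and reached the test through the T and NK sums, so nothing is read from their count or direction as a list. Lck, the kinase that phosphorylates the CD3 chains, gave 34, 22, 4, 18 and 12 UMIs in OVX, OVX_E2, OVX_E2_PBDE, OVX_E2_P4 and OVX_E2_P4_PBDE, or 233, 273, 99.2, 186 and 219 CPM. Myeloid barcodes held Lck UMIs in OVX_E2_PBDE alone, at 4.28 CPM, so the groups did not overlap. Its log2 fold change was 6.34 ± 0.52 (SE, n = 5 libraries, adjusted p = 2.44e-06). Lat, the scaffold downstream of the receptor, was higher by 5.54 ± 0.46 on the log2 scale (adjusted p = 2.47e-06), and the adaptor gene Skap1 by 5.52 ± 0.42. Thy1, a surface glycoprotein of T cells, was higher by 4.82 ± 0.33. Cd27, a costimulatory receptor of T and NK cells, was higher by 4.77 ± 0.50, and Tnfrsf18, a receptor of activated and regulatory T cells, by 3.72 ± 0.37. The whole lists of these 2 genes summed to 42.4 and 65.1 CPM in myeloid barcodes, so the same limit holds for both.

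Outside the rule, Gzmb and Xcl1 had the largest folds among the higher genes with an average log2 CPM of at least 6. Both had 2 UMIs in the 220 myeloid barcodes and Ctsw had 3, so that these genes too reached the test through the T and NK sums, and their folds are a description. Gzmb (chr14:56258838-56262260) gave 66, 22, 165, 89 and 9 UMIs in the 5 libraries in the order above, and 155 of the 165 in OVX_E2_PBDE came from 1 barcode. Each library stood well above its myeloid barcodes, where Gzmb reached at most 4.20 CPM. The log2 fold change was 9.47 ± 0.39 (adjusted p = 1.07e-08), and over all libraries the level was 839 CPM, or 479 CPM without that barcode. Xcl1 (chr1:164931644-164935527) gave 33, 36, 14, 51 and 7 UMIs and was higher by 7.12 ± 0.49 (adjusted p = 7.57e-07). It was higher in every one of the 5 libraries. Ctsw, a cysteine protease of cytotoxic cells, was higher by 6.22 ± 0.45, while the granule proteoglycan gene Srgn, which myeloid cells also use, had a log2 fold change of -0.50 ± 0.19 that did not pass (adjusted p = 0.0540). The 10 genes with the largest folds at that level also held Gimap4, Ptprcap and Ctla2a. Each was higher in 5 of 5 libraries, though they were picked by their folds in this test. Gimap4 had 3 UMIs and Ptprcap 8 in the 220 myeloid barcodes, and Ctla2a reached at most 19.3 CPM there. They too could reach the test through the T and NK sums, so their folds are a description.

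Of the NK receptor list, 4 genes could be tested against myeloid barcodes, and 3 were higher and 1 lower. Most of the list's 19 genes had too few UMIs for the test, and Klrd1 had 15 UMIs in 7 of 220 myeloid barcodes, so nothing is read from this count. Klrd1 was higher by 3.94 ± 0.48 (adjusted p = 5.25e-05), Hcst by 2.45 ± 0.33, and Klrk1, which encodes the activating receptor NKG2D, by 2.25 ± 0.45. Fcer1g, an adaptor of Fc receptors that myeloid cells use heavily, was lower at -1.57 ± 0.34 (adjusted p = 0.00333). Among cytokines and ligands 3 of 7 tested genes were higher and 2 lower, beside 8.14% higher and 17.2% lower of all genes outside the rule. The higher genes were Ccl5 (3.64 ± 0.43), Xcl1 and the lymphotoxin gene Ltb (3.54 ± 0.31). The same limit holds for Xcl1 and could hold for Ltb. The lower genes were Ccl3 (-2.32 ± 0.48) and the growth factor gene Areg (-1.41 ± 0.33). Nothing is read from these counts either. Ccl4 at -0.67 ± 0.50 did not pass (adjusted p = 0.314). All 5 tested MHC class II genes, which serve antigen presentation, were lower, with H2-Aa at -7.67 ± 0.56 and the invariant chain gene Cd74 at -6.81 ± 0.56. The list summed to 488 CPM in T and NK barcodes and 56948 CPM in myeloid barcodes. These genes thus reached the test through the myeloid sums, and nothing is read from their count. The receptor gene Csf1r (-7.69 ± 0.78) and Cd68 (-6.35 ± 0.53), myeloid genes outside the rule, were lower too. Both were nearly absent from T and NK barcodes and reached the test through the myeloid sums, so these folds are a description. Itgax, an integrin gene of myeloid and some lymphoid cells, was not among the genes tested there, with 12 CPM in T and NK against 78.3 CPM in myeloid barcodes. Over all other barcodes, at 1.38 CPM, it was higher by 2.69 ± 0.92 (adjusted p = 0.0165).

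**Figure D2:**
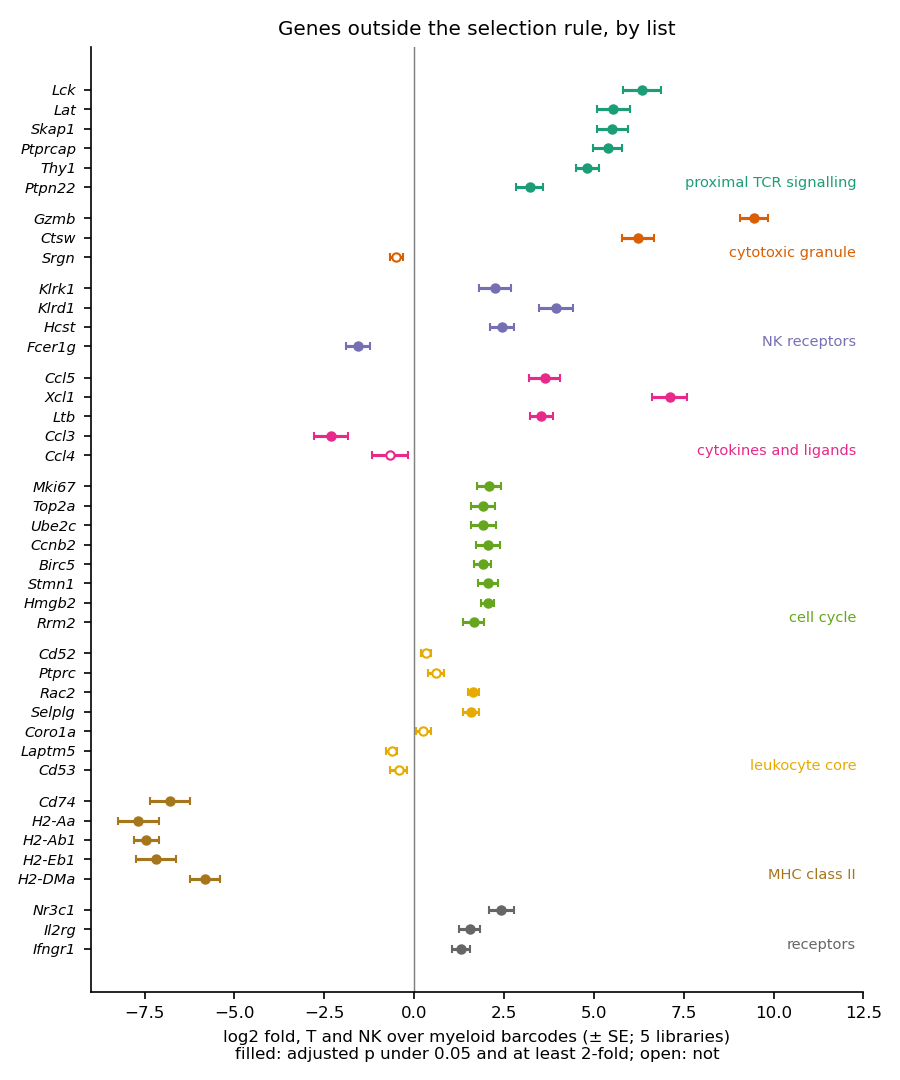
Log2 fold change (x axis, points with SE over 5 libraries) of genes outside the selection rule between T and NK barcodes and myeloid barcodes, grouped by list, with filled points for genes past an adjusted p of 0.05 and 2-fold. Signalling, granzyme and all 8 cell cycle genes lie to the right of 0, Cd52 and Ptprc near it, and the 5 MHC class II genes far to the left.

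Of 10 cell cycle genes 8 could be tested against myeloid barcodes, and all 8 were higher in T and NK barcodes, beside 8.14% of all genes outside the rule. The less abundant of the 8 could have reached the test through the T and NK sums, so nothing is read from their count or median as a list. Hmgb2, a chromatin protein of dividing cells, gave 298, 275, 63, 195 and 134 UMIs, or 2041, 3413, 1563, 2019 and 2444 CPM, against 241, 843, 515, 390 and 609 CPM in the myeloid barcodes of the same libraries. The lowest T and NK value lay above the highest myeloid value. Hmgb2 was higher by 2.04 ± 0.18 (adjusted p = 4.08e-06), Stmn1, a microtubule regulator, by 2.06 ± 0.28, the proliferation marker Mki67 by 2.08 ± 0.34 and the topoisomerase gene Top2a by 1.92 ± 0.33. The median of the 8 was 1.99 on the log2 scale, beside 0.01 over all genes outside the rule. To set aside depth, each barcode was thinned to 3000 UMIs. A UMI of Mki67, Top2a, Cdk1, Ube2c, Ccnb2 or Birc5 was then found in 32 of 73 T and NK barcodes (43.8%, 32.2 to 55.9%), 32 of 220 myeloid barcodes (14.5%, 10.2 to 19.9%) and 37 of 3384 fibroblast barcodes (1.09%, 0.775 to 1.5%). The fibroblast share served as a gauge of free RNA. Unthinned, the shares were 50.7, 19.1 and 2.25%.

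The same thinning gave the shares for single genes. Ccl5 was found in 65.8% of T and NK, 19.5% of myeloid and 3.93% of fibroblast barcodes. Gzmb was found in 42.5, 0.455 and 0.414%, Xcl1 in 34.2, 0.455 and 0.0887%, and Klrd1 in 41.1, 2.27 and 0.207%. For Gzmb and Xcl1 the myeloid share was within the counting error of the fibroblast share. Cd52 was nearly as frequent in myeloid (89.1%) as in T and NK barcodes (93.2%), and Fcer1g was more frequent in myeloid (86.8%) than in T and NK barcodes (42.5%). Icos and Cd28 were found in 31.5 and 28.8% of T and NK barcodes and in 0.909% of myeloid barcodes each.

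**Figure D3:**
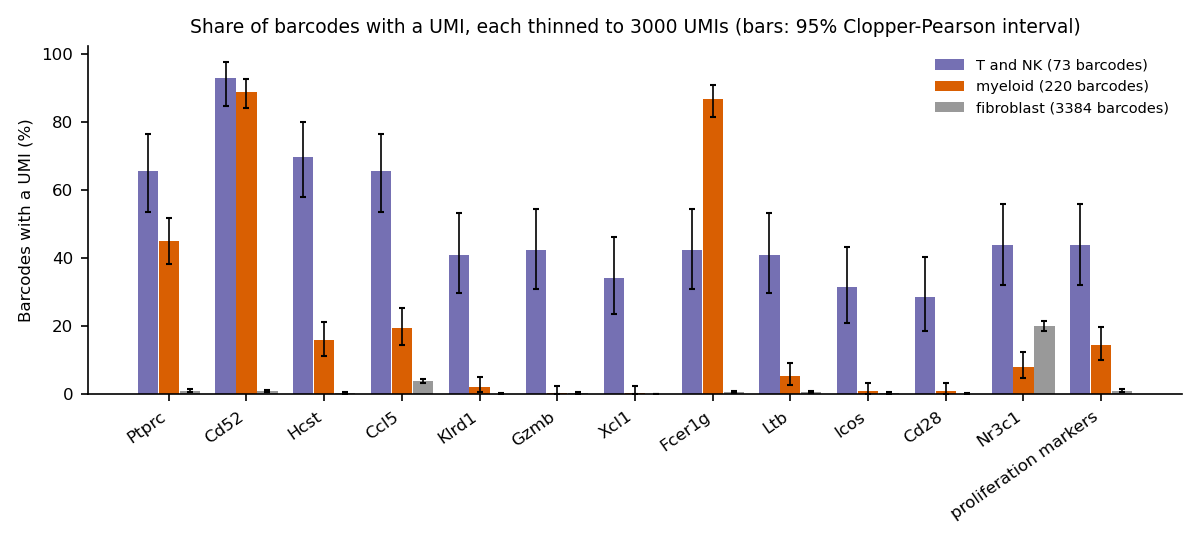
Share of barcodes (y axis, %, bars with 95% Clopper-Pearson intervals) with at least 1 UMI of a gene after thinning to 3000 UMIs, in T and NK (73), myeloid (220) and fibroblast (3384) barcodes pooled over the 5 libraries. Gzmb, Xcl1, Klrd1, Icos and Cd28 are near 0 outside the T and NK barcodes, Fcer1g is highest in the myeloid barcodes, and the proliferation markers are at 43.8, 14.5 and 1.09%.

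Nr3c1, the glucocorticoid receptor gene, had the most UMIs of the steroid receptor list in T and NK barcodes. It gave 33, 11, 8, 21 and 6 UMIs in OVX, OVX_E2, OVX_E2_PBDE, OVX_E2_P4 and OVX_E2_P4_PBDE, in 45 of the 73 barcodes. The levels of 226, 137, 198, 217 and 109 CPM lay above those of the myeloid barcodes, 36.0, 17.7, 29.9, 16.8 and 61.6 CPM, in every library. It was higher by 2.42 ± 0.35 on the log2 scale than in myeloid barcodes (adjusted p = 1.75e-04), and by 1.62 ± 0.29 than in all other barcodes (adjusted p = 3.36e-07). At these myeloid levels Nr3c1 could have reached the first of these tests through the T and NK sums, so that fold is a description. Thinned, its share was 43.8% in T and NK, 8.18% in myeloid and 20.1% in fibroblast barcodes, the last being cells that express the gene. The estrogen receptor gene Esr1 and the progesterone receptor gene Pgr gave 3 UMIs each over all 73 barcodes, and Esr2 and the mineralocorticoid receptor gene Nr3c2 gave none. Tsc22d3, a target of the glucocorticoid receptor, had a log2 fold change of 0.17 ± 0.36 against myeloid barcodes and did not pass (adjusted p = 0.736). Over all other barcodes it was higher by 1.19 ± 0.37 (adjusted p = 0.00728).

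All other barcodes of the gland included 239 that held at least 2 marker UMIs but missed a limit of the rule, and these gave 3949 of the 8284 Ccl5 UMIs and 259 of the 469 Gzmb UMIs outside the members. Against all other barcodes, 750 of 12302 tested genes (6.10%) were higher in T and NK barcodes and 2381 (19.4%) were lower, or 744 (6.06%) and 2371 (19.3%) of the 12284 outside the rule. The median log2 fold change of all tested genes was -0.69, and many genes reached the test only through the far larger sums of the other barcodes, so that lower calls are to be read relative to that shift. Conversely, a lymphocyte gene that was rare in the other barcodes could reach the test through the T and NK sums. Nothing is therefore read from the counts or medians of lymphocyte gene lists against all other barcodes, which are a description. All 7 tested coreceptor and costimulation genes were higher, among them Cd8a (7.36 ± 0.52), Cd6 (6.94 ± 0.59), Cd28 (6.19 ± 0.47) and Icos (6.07 ± 0.43). So were 13 of 14 signalling genes, with Zap70, the kinase that binds phosphorylated CD3 chains, at 6.71 ± 0.48, and all 7 NK receptor genes, with Klrc1 at 6.52 ± 0.46 and Ncr1 at 6.42 ± 0.55. Genes of egress and homing followed, with 7 of 9 higher, led by the sphingosine phosphate receptor gene S1pr4 at 6.23 ± 0.44. The medians of these lists were 6.19, 6.0, 6.35 and 4.21. Of the 15 leukocyte core genes, 13 were higher, with Rac2, Selplg, Cd52, Coro1a and Ptprc between 4.99 and 6.07. Cd7, an early T and NK surface protein, was higher by 6.65 ± 0.30, and Arhgdib by 5.01 ± 0.27. All 10 cell cycle genes were higher, with a median of 3.88.

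Some receptors for cytokines and genes of residence in tissue were also higher than in the rest of the gland. Of 13 tested cytokine receptor genes 7 were higher and 3 lower, with a median of 2.26, beside 6.06% higher and 19.3% lower of all genes outside the rule. Lymphocyte genes of the cytokine receptor, residency, transcription factor and memory lists could reach the tests through the T and NK sums. Nothing is therefore read from the higher counts or medians of these lists. Il2rb, the chain of the interleukin 2 and 15 receptors that NK cells depend on, gave 40, 17, 3, 27 and 2 UMIs in OVX, OVX_E2, OVX_E2_PBDE, OVX_E2_P4 and OVX_E2_P4_PBDE and was higher by 5.45 ± 0.39 (adjusted p = 4.29e-43). The shared chain gene Il2rg was higher by 4.93 ± 0.37 here and by 1.55 ± 0.29 against myeloid barcodes, and Ifngr1 by 2.26 ± 0.26 and 1.29 ± 0.25. The lower share of the list was near that background. Of 9 tissue residency genes 7 were higher and 1 lower. The chemokine receptor gene Cxcr6 was at 5.41 ± 0.50, Rgs1 at 4.76 ± 0.28 and Cd69, an early activation marker that holds T cells in tissue, at 4.32 ± 0.60. Against myeloid barcodes 2 of 6 residency genes were higher, beside 8.14% of all genes outside the rule. Rgs1 did not pass there (-0.30 ± 0.27, adjusted p = 0.394). Cxcr6 UMIs came mostly from OVX (19) and OVX_E2_P4 (17), and none came from OVX_E2_P4_PBDE. Of 16 lineage transcription factor genes 7 were higher, among them Bcl11b, which fixes the T cell fate, at 5.44 ± 0.59 with 19 UMIs in 18 barcodes, and Tox at 4.34 ± 0.56. Of 6 naive and central memory genes 4 were higher, among them Tcf7 at 4.41 ± 0.48 with 31 UMIs in 18 barcodes. MHC class I genes were near level, with 1 of 11 higher and a median of 0.09.

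Genes lower than in the rest of the gland included 10 of 15 immediate early and stress genes, whose induction often follows tissue dissociation, beside 19.3% of all genes outside the rule. Their median was -1.77, beside -0.69 over all genes. Fos stood at -2.53 ± 0.21 and Jun at -2.64 ± 0.26, whereas against myeloid barcodes neither passed (-0.45 ± 0.25, adjusted p = 0.186, and 0.44 ± 0.36, adjusted p = 0.351). Of 7 tested steroid receptor genes 4 were lower, beside 19.3% of all genes outside the rule, with a median of -1.73 for the list. The lower genes included Esr1 at -3.08 ± 0.67 (adjusted p = 4.24e-05) and Pgr at -3.22 ± 0.64 (adjusted p = 5.38e-06). Esr1 and Pgr had few UMIs in the members and reached the test through the other barcodes. Their folds are a description, and nothing is read from the count. Genes of the aryl hydrocarbon receptor, a sensor of planar aromatic compounds, were sparse: Ahr gave 11 UMIs and its target Tiparp 18, and Cyp1a1, Cyp1b1 and Ahrr had none in any library. The regulatory T cell list had all 4 tested genes higher, beside 6.06% of all genes outside the rule. Tnfrsf18 was its most abundant member, and Foxp3 was not among those tested. The 4 genes could have reached the test through the T and NK sums, so nothing is read from this count.

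The share of T and NK barcodes was highest in OVX. It was 29 of 3109 barcodes there (0.933%, 0.626 to 1.34%). OVX_E2 held 9 of 2233 (0.403%, 0.184 to 0.764%) and OVX_E2_PBDE held 6 of 3536 (0.170%, 0.0623 to 0.369%), while OVX_E2_P4 held 19 of 3107 (0.612%, 0.369 to 0.953%) and its counterpart with PBDEs 10 of 2359 (0.424%, 0.203 to 0.778%). Over the 4 estradiol libraries together it was 44 of 11235 (0.392%, 0.285 to 0.525%), an interval below that of OVX. Some members held transcripts of other cell types, as taken up below. Without them OVX_E2_PBDE held 3 (0.0848%), OVX 27 (0.868%) and OVX_E2_P4_PBDE 8 (0.339%). Depth differed between the libraries. The shallowest barcode deposited had 3374 UMIs in OVX and 5395 in OVX_E2, and 20 of the 29 OVX members lay under 5395 UMIs. Among barcodes with at least 5395 UMIs the shares were 0.602% (0.276 to 1.14%), 0.403%, 0.117%, 0.285% and 0.259% for OVX, OVX_E2, OVX_E2_PBDE, OVX_E2_P4 and OVX_E2_P4_PBDE, and the OVX interval then overlapped that of the pooled estradiol libraries (0.248%, 0.157 to 0.372%). The order of OVX_E2 against OVX_E2_P4 and against OVX_E2_P4_PBDE was turned by this floor.

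Relative to myeloid barcodes the shares were nearly level, apart from 1 library. T and NK barcodes made up 30.2% of T, NK and myeloid barcodes together in OVX, 29.0% in OVX_E2, 30.6% in OVX_E2_P4 and 27.8% in OVX_E2_P4_PBDE, and 8.82% (3.31 to 18.2%) in OVX_E2_PBDE. The interval of OVX_E2_PBDE lay below that of OVX (21.3 to 40.4%) and OVX_E2_P4 (19.6 to 43.7%) and overlapped those of OVX_E2 (14.2 to 48.0%) and OVX_E2_P4_PBDE (14.2 to 45.2%). With the floor of 5395 UMIs the 5 shares were 27.3, 29.0, 6.78, 33.3 and 27.3%. When the myeloid limit was read from Lyz2, C1qa, C1qb and C1qc only, OVX_E2_PBDE rose from 6 to 12 T and NK barcodes, more than any other library gained.

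**Figure D4:**
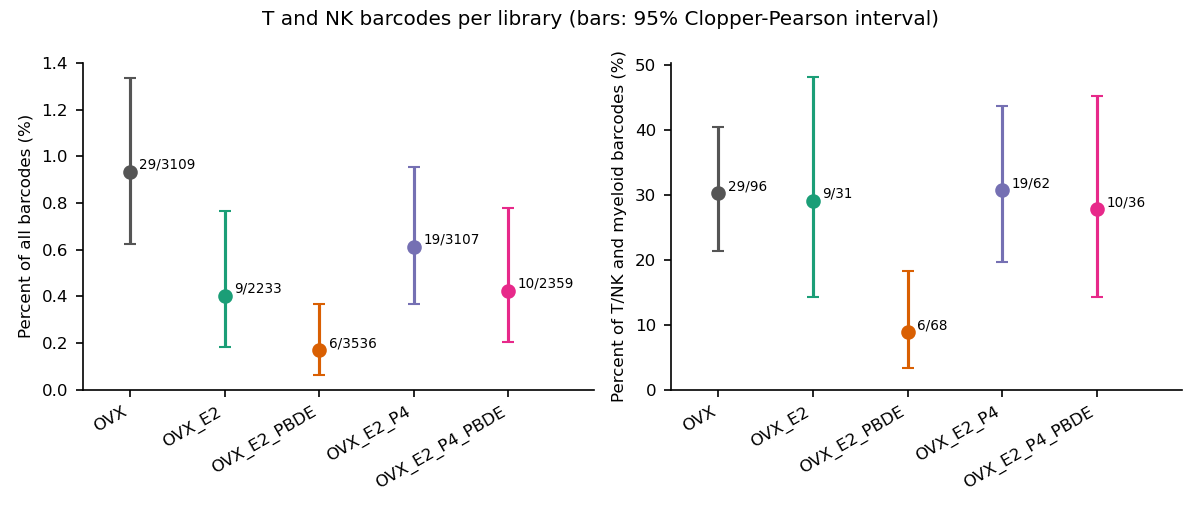
T and NK barcodes per library (x axis) as a percent of all barcodes (left) and of T, NK and myeloid barcodes together (right), with 95% Clopper-Pearson intervals and the counts beside the points. OVX is highest on the left at 0.933%, and OVX_E2_PBDE is lowest on both sides at 0.170 and 8.82%.

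Levels within the T and NK barcodes also varied between libraries. The members held 146019 UMIs in OVX and 80569 in OVX_E2, 96560 and 54830 in the progesterone libraries without and with PBDEs, and 40308 in OVX_E2_PBDE, with 3472 to 18432 UMIs per barcode. Ccl5 stood at 9814 CPM in OVX and 10170 CPM in OVX_E2_P4 but at 1303 CPM in OVX_E2, 2134 CPM in OVX_E2_PBDE and 1951 CPM in OVX_E2_P4_PBDE. The medians per barcode were 23, 1, 9, 36 and 0 UMIs in the order OVX, OVX_E2, OVX_E2_PBDE, OVX_E2_P4 and OVX_E2_P4_PBDE, and the highest barcode held 458, 56, 50, 281 and 56. Ccl5 had a UMI in 20 of 29, 5 of 9, 5 of 6, 16 of 19 and 4 of 10 barcodes. The highest barcode carried 32% of the sum in OVX and 28.6% in OVX_E2_P4, and between 52.3 and 58.1% in the other 3 libraries. Gzma gave 579 UMIs in 10 OVX barcodes and 205 in 7 OVX_E2_P4 barcodes, and 1, 40 and 4 UMIs in the other 3 libraries. Barcodes without CD3 were 7 of 29 in OVX and 6 of 19 in OVX_E2_P4, and 1 of 9, 3 of 6 and 1 of 10 in OVX_E2, OVX_E2_PBDE and OVX_E2_P4_PBDE.

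**Figure D5:**
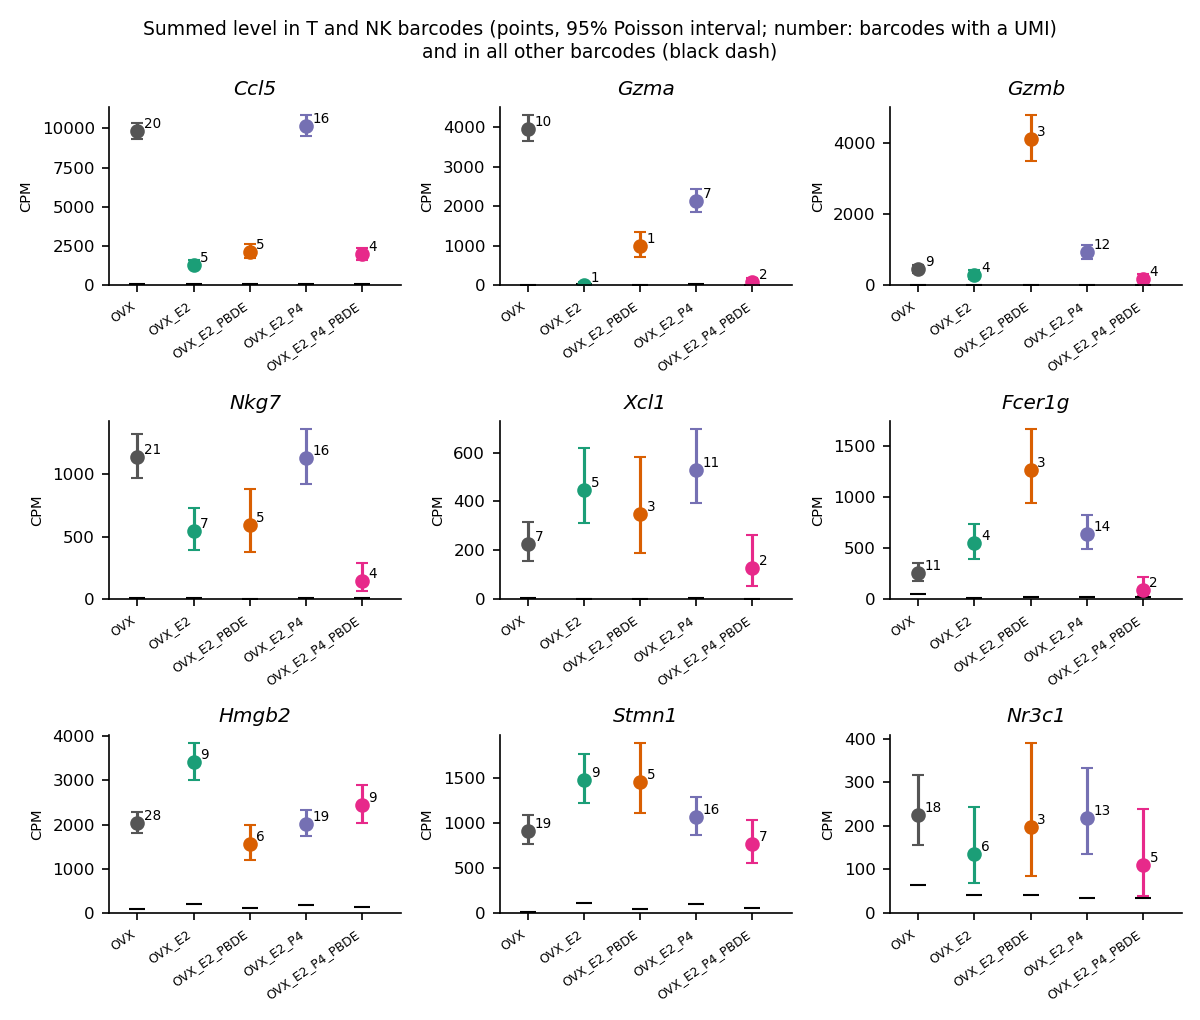
Summed level (y axis, CPM, 95% Poisson intervals for counting error) of 9 genes in the T and NK barcodes of each library, with the number of barcodes that held a UMI beside each point and the level in all other barcodes as a black dash. Ccl5 and Nkg7 are high in OVX and OVX_E2_P4, Gzmb and Fcer1g are highest in OVX_E2_PBDE with 3 barcodes each, and Hmgb2 is highest in OVX_E2.

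OVX alone held 20 or more T and NK barcodes, so the 4 estradiol libraries were pooled (44 barcodes) and set against OVX (29). Of 1620 genes with at least 30 UMIs over both sums, 61 (3.77%) were at least 2-fold higher with estradiol and 103 (6.36%) at least 2-fold lower. This comparison has 1 library on one side and no test. The genes named next were taken among those raised at least 2-fold in T and NK barcodes over the rest of the gland, a level that a single library or barcode could also give. Tmem2, which encodes a hyaluronidase of the cell surface, gave 45 UMIs in 24 of 44 estradiol barcodes and 2 UMIs in 2 of 29 OVX barcodes, a ratio of 12.1 (3.15 to 103) beside 1.40 in all other barcodes. It was higher in each of the 4 estradiol libraries. Ikzf2, the gene of the transcription factor Helios, had a ratio of 6.54 (2.66 to 20.9). Dusp10, a phosphatase of stress kinases, gave 7 UMIs in 7 of 44 barcodes against 28 in 12 of 29, a ratio of 0.134 (0.0494 to 0.314). The largest ratio among such genes, 19.8 for Ifitm1, rested on 1 barcode with 34 of its 37 UMIs, and the smallest on 1 OVX barcode with 102 of 103 Krt14 UMIs.

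Effector genes went in both directions in this comparison. Gzma had a ratio of 0.232 (0.199 to 0.269) and Ccl5 of 0.479 (0.444 to 0.517), which were 0.0646 and 0.173 when OVX_E2_P4 was left out. The Ccl5 ratio was 0.393 in myeloid and 0.736 in all other barcodes, and that of Gzma was 1.30 in all other barcodes. Myeloid barcodes were chosen to hold fewer than 2 marker UMIs and gave 8 Gzma UMIs. Nothing is therefore read from the Gzma ratio of 1.08 there. Nkg7 had a ratio of 0.598 beside 0.496 in all other barcodes, while Fcer1g had a ratio of 2.35 (1.63 to 3.45). Xcl1 had a ratio of 1.76 (1.18 to 2.68), which turned to 0.779 under the 4-gene myeloid limit. Gzmb had a ratio of 2.32, which was 1.06 without the barcodes that held transcripts of other cell types. The cell cycle genes Hmgb2 and Stmn1 had ratios of 1.2 (1.05 to 1.38) and 1.29 (1.05 to 1.59), beside 1.83 and 4.96 in all other barcodes. Proliferation markers were found, thinned, in 10 of 29 OVX barcodes (34.5%, 17.9 to 54.3%) and 22 of 44 estradiol barcodes (50%, 34.6 to 65.4%), and the intervals overlapped. Cd28 had a ratio of 0.394 (0.226 to 0.681), with 0.284 in all other barcodes. Tsc22d3 had a ratio of 0.338 beside 0.331. Gsn, a gene of high level in fibroblasts, had a ratio of 0.185 in T and NK barcodes, 0.219 in myeloid barcodes and 0.177 in all others. The median T and NK barcode held 11 Gsn UMIs in OVX and 1 to 3 in the estradiol libraries. For Nkg7, Cd28, Tsc22d3 and Gsn the shift was about as large or larger in all other barcodes. In myeloid barcodes the Tsc22d3 ratio was 0.843. Nkg7 was capped there by the choice of myeloid barcodes and gave 6 UMIs in 220 of them. Nothing is therefore read from its myeloid ratio of 1.80. The part of free RNA in these shifts was not tested.

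With and without progesterone, 29 estradiol barcodes were set against 15, fewer than 20 even when pooled. Of 1030 genes, 20 (1.94%) were at least 2-fold higher with progesterone and 48 (4.66%) at least 2-fold lower. The higher count was 66 without OVX_E2 and 44 without OVX_E2_PBDE, with 38 and 46 lower. S100a4, a calcium-binding protein of effector and motile cells, gave 64 UMIs in 17 of 29 barcodes against 3 UMIs in 3 of 15. Its ratio was 17 (5.57 to 84.8), beside 0.990 in all other barcodes, and it was 520 CPM in OVX, so that OVX_E2 and OVX_E2_PBDE, both at 24.8 CPM, were the low libraries. Under the 4-gene myeloid limit the ratio was 3.51. Ccl5 had a ratio of 4.55 (3.90 to 5.34) and Gzma of 4.07 (2.90 to 5.84), which were 1.24 and 0.215 when OVX_E2_P4 was left out, since that library held most of their UMIs. Among genes raised at least 2-fold in T and NK barcodes, Glipr1, at 0.224, Fabp5, a fatty acid binding protein gene, at 0.184, and Ifitm1, at 0.0222, had the smallest ratios. In the libraries without progesterone 1 barcode held 17 of 26 Fabp5 UMIs, 1 held 10 of 25 Glipr1 UMIs, and 1 held 34 of 36 Ifitm1 UMIs. The ratio of Gzmb was 0.418, and it was 2.37 when OVX_E2_PBDE, with its 1 barcode of 155 UMIs, was left out.

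Of the 73 barcodes, 7 also held at least 10 UMIs of Krt14, Jchain, Cpa3, Cd74 or Fabp4, genes of basal epithelial, plasma, mast, antigen-presenting and endothelial or fat cells. In OVX, 1 barcode had 102 Krt14 UMIs with 25 Ccl5 and 3 Klrd1 UMIs. Another had 71 Jchain, 53 Cd74 and 7 Cd79b UMIs with 2 of Cd3g. In OVX_E2_PBDE, 1 barcode held 155 Gzmb, 26 Ccl4, 20 Fcer1g, 15 Cpa3, 7 Il13 and 6 Il4 UMIs, and of the 5 marker genes it held only 2 UMIs of Nkg7. Its leading genes are those of mast cells or basophils and go against the label. A second barcode of that library had 72 Fabp4 UMIs, and another had 10 Cd79a, 21 H2-Aa and 47 Cd74 UMIs with 3 of Cd8a and 50 of Ccl5. The remaining 2, in OVX_E2_P4_PBDE, held 31 and 38 Fabp4 UMIs. The B cell gene Cd79a was at 3.47 ± 0.67 over all other barcodes with these members in, and did not pass without the 7. Doublets were not called. No barcode sequence was a member in more than 1 library, although 82 barcode sequences were shared between pairs of libraries and 1 member had its sequence in another.

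Clustering of the 73 barcodes gave 5 clusters, which are named here by their leading genes, with no test. The first held 7 barcodes, all from OVX, and was led by Gzma, Gpx8, Klrg1, Prf1 and Spry2. Prf1 encodes perforin and Klrg1 a receptor of mature effector cells. The second held 14 barcodes, 8 of them from OVX_E2_P4, and was led by Cd7, Dapk2, Klra5, Uck1 and Car2, with Klrk1 and Fcer1g in 14 of 14. The third held 20 barcodes and was led by Cd74, Acta2, Ccr7, Tcf7 and Morc2a, though 53 and 47 of its 110 Cd74 UMIs lay in 2 barcodes. The fourth held 19 barcodes and was led by Ass1, Fabp5, Cd6, Ccr4 and Tesc, with Cd3g in 19 of 19 and Cd28 in 16 of 19. Ccr4, a receptor for skin and type 2 chemokines, had UMIs in 5 of its barcodes and in none of the others, and all 5 were from OVX. The fifth held 13 barcodes and was led by Igfbp7, Timp3, Cd36, Col4a2 and Ebf1, genes of stromal and vascular cells, each with UMIs in 4 to 6 of its barcodes. Fcer1g (1233 CPM), Tyrobp (945 CPM) and Klrd1 (368 CPM) had UMIs in 10 of the 13 each, and the first and second of these levels were the highest of the 5 clusters. Mki67 was found in 10 of 14 barcodes of the second cluster and 13 of 19 of the fourth.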

How the data were processed

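The deposited tables hold UMI counts per gene and barcode, which the authors made from 10x Chromium 3′ libraries with Cell Ranger 2.0.0 against mm10. Counts were used as deposited, and no barcode was removed beyond those outside the stated limits. The members, gene lists and tests were chosen with earlier results of these data known. Total UMIs per library ran from 19982067 to 42012988. UMIs were summed per library and class and tested with edgeR 4.0.16 (R 4.3.3) by the quasi-likelihood test, with TMM scaling, filterByExpr and the library as a block, and p-values were adjusted by Benjamini-Hochberg over all genes tested. DESeq2 1.42.0 served as an alternative. The steps were first tested on data with known fold changes. The libraries of a treatment were described by CPM with Poisson intervals and ratios with exact conditional intervals, for genes with at least 30 UMIs. Clusters came from Scanpy 1.11.5 with Leiden resolution 0.8, and their folds were computed with 20 CPM added. Named genes were those of 36 lists with the most abundant or most changed members, the 10 largest folds in each test at an average log2 CPM of at least 6, the 3 largest and 3 smallest ratios in each pooled comparison among genes raised 2-fold in the members, and 5 genes per cluster. Treatment comparisons planned between single libraries were pooled, since all but OVX held under 20 members. Gene positions are from GENCODE M21.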

Additional observations from a re-analysis of the deposited data

Results flagged for a closer look

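Barcodes that the limits of the rule kept out also carried T cell transcripts. Of 312 barcodes with at least 2 UMIs of the 5 marker genes, 239 were not members. Lck, which was not in the rule, had a UMI in 48 of the 73 members (65.8%). Among barcodes kept out by the epithelial limit alone it had a UMI in 20 of 113 (17.7%, 11.2 to 26.0%), against 100 of 5891 (1.70%) that were over the same limit with 0 or 1 marker UMI. The median depth of these 113 was 14922 UMIs and that of the 5891 was 11092. Among barcodes kept out by the fibroblast limit alone it was 24 of 78 (30.8%, 20.8 to 42.2%), against 29 of 6359 (0.456%), at median depths of 6671.5 and 5913 UMIs. Among barcodes kept out by the myeloid limit alone it was 12 of 25 (48.0%, 27.8 to 68.7%), against 2 of 220 (0.909%). These barcodes were picked out because their share lay above the level of barcodes with 0 or 1 marker UMI. They are not members and were not analysed as a class above, but they are part of all other barcodes there. The mitochondrial limit alone kept out none. The source of these transcripts was not tested.

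Of the 25 barcodes kept out by the myeloid limit alone, 15 were under that limit on Lyz2, C1qa, C1qb and C1qc. The 25 held 300 Tyrobp UMIs, 432 Lyz2 UMIs and 2285 Cd74 UMIs, the last in 21 of them, and Ncr1 had a UMI in 3. The 15 held 1063 Cd74 UMIs.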

How the results depend on the processing

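Replicate numbers could pair no treatments, each having 1 library, and a fit of progesterone over the 4 estradiol libraries paired on PBDE was not run. For the comparisons of cell classes, in which the library was the block, leaving out the replicate block gave 120 higher and 255 lower genes against myeloid barcodes and 733 and 2168 against all other barcodes. With members left out under stricter limits, or the 4-gene myeloid limit, the members per library were 27 to 32 in OVX, 7 to 12 in OVX_E2, 3 to 12 in OVX_E2_PBDE, 18 to 20 in OVX_E2_P4 and 8 to 12 in OVX_E2_P4_PBDE. As a percent of T, NK and myeloid barcodes the shares were 30.2, 29.0, 8.82, 30.6 and 27.8%. At the floor of 5395 UMIs, an alternative chosen after seeing the data, as was leaving out the 7 barcodes with other cell types' transcripts and each library of a pool, OVX moved to 0.602%, OVX_E2_P4 to 0.285% and OVX_E2_P4_PBDE to 0.259%.

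Without a filter on low counts, 321 genes were higher and 954 lower than in myeloid barcodes, among 13985 tested, and H2-K1 stood at -0.00249 on the log2 scale. Genes lower than in all other barcodes numbered 1470 with DESeq2 and 1585 to 2209 with a library left out, the fewest without OVX. The scaling moved the median log2 fold change there from -0.69 to -0.60 with RLE size factors and to -0.43 with DESeq2. The B cell and plasma cell genes Cd79a and Mzb1 rested on few barcodes. Cd79a was at -7.91 without the barcodes holding B cell UMIs and at -7.92 without the 7, and Mzb1 at -9.36 in both. With a library left out Cd79a was between 0.77 (without OVX_E2_PBDE) and 4.09, and Mzb1 between -9.48 (without OVX) and 2.51. These lower values do not pass the test.

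With estradiol over OVX, Xcl1 was at 0.779 under the 4-gene myeloid limit, and Ifitm1 ran from 0.630 to 29.9 with a library left out. With over without progesterone, the genes at least 2-fold higher numbered 24 to 66 with a library left out, against 20, and several ratios turned. Gzmb was at 2.33 with at least 3 marker UMIs and 2.13 without the 7 barcodes, and ran from 0.106 to 2.37 with a library left out. Gzma was at 0.711 under the 4-gene limit and ran from 0.215 to 111. Nkg7 ran from 0.259 to 2.01, Hmgb2 from 0.637 to 1.39 and Ikzf2 from 0.243 to 1.1. At Leiden resolution 0.4 there were 2 clusters. With 6 to 29 barcodes a library, a single barcode could decide a level, and the cause of these turns was not tested beyond the libraries and barcodes named.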
